A study of Apis mellifera with 48 samples.

Results

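In the mushroom bodies of honey bees, 79 of 15314 gene identifiers had a higher median level in afternoon drones than in morning drones while the medians of workers stayed close between the same hours. The genes were chosen on counts per 1000000 gene reads (CPM) and on the median of the 12 bees of each group. Members had a 3 pm to 9 am ratio of at least 1.6 in drones and of 0.8 to 1.25 in workers, a median of at least 5 CPM in 3 pm drones, and medians of at least 1 CPM in the other 3 groups. The level limits alone left 8184 identifiers, and 131 of these had a drone ratio of at least 1.6. Of the 131, 79 lay within the worker limits, 40 had a worker ratio above 1.25 and 12 had one below 0.8. Because both time contrasts chose the genes, their drone ratios, worker ratios and the difference between the sexes are given as a description.

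The series profiled polyadenylated RNA from the mushroom bodies of 48 single bees (Apis mellifera) from 3 hives whose queens were unrelated and naturally mated. The groups were 12 active drones taken at 3 pm shortly before flight, 12 inactive drones taken at 9 am, 12 active workers taken at 3 pm while preparing to forage, and 12 inactive workers taken at 9 am. Activity and clock time divided the bees in the same way and cannot be told apart, and the labels give no age, strain or treatment. Afternoon drones came from colonies 1, 2 and 3 as 2, 2 and 8 bees, morning drones as 5, 1 and 6, and the workers of each time as 5, 5 and 2.

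Mushroom bodies are paired centres of the insect brain, built largely of small intrinsic neurons called Kenyon cells, and are known for their part in learning, memory and the combining of senses. Drones are the males of the hive, develop from unfertilised eggs, and leave on afternoon flights to meet queens. Workers are females that do not usually mate, and the foragers among them learn the place, scent and hour of flowers. In such bulk tissue, fewer cells of a type and less RNA per cell cannot be told apart. None of the identifiers is paired with a name in the files, and 0 of the 15314 matched the RefSeq gene table of the assembly Amel_HAv3.1. The genes are therefore described by identifier, without a role, a position or a sequence, and the tissue label could not be set against marker genes.

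Reads assigned to genes ran from 9.03 to 15.3 M (units of 1000000) per library in afternoon drones, from 6.69 to 22.4 M in morning drones, from 6.85 to 27.1 M in afternoon workers and from 7.95 to 25.6 M in morning workers. All 79 genes were among the 11167 that had enough reads for a test.

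Most of the 79 genes differed modestly between the drone medians. The ratio of medians ranged from 1.61 to 16.4 with a median of 1.85. It was at least 4 in 6 genes, at least 2 in 29, between 1.6 and 2 in 50, and under 1.7 in 18. Afternoon drone medians spanned 5.59 to 9193 CPM, with 19 genes at 100 CPM or more and 18 under 10 CPM. The summed level of the 79 genes in a bee had a median of 20213 CPM in afternoon drones and 8718 CPM in morning drones. These sums rest largely on the most abundant genes, since GB40866 alone had medians of 9193 and 4869 CPM. In 34 genes the afternoon drone median lay above all 24 workers. The choice of genes favours such a count, and no share over all genes was computed, so nothing is read from it.

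Within the narrow window that the selection allowed, the worker ratio was above 1 in 60 genes and below 1 in 19, with a median of 1.11. No share over all genes was computed for this split, so nothing is read from it. In a model of all 48 bees with colony as a covariate (edgeR quasi-likelihood test, p-values adjusted by Benjamini-Hochberg across 11167 genes), the median log2 difference between times was 0.88 in drones and 0.16 in workers. In drones, 52 of the 79 genes were called higher at 3 pm, where 2.64% of all genes were. In workers 1 of the 79 was called, where 2.31% of all genes were. It was GB48311, named here after its values were seen, with 17.9 and 10.9 CPM as the medians of afternoon and morning drones, 9.44 and 7.88 CPM as those of afternoon and morning workers, and a worker log2 difference of 0.58 ± 0.15 (SE, edgeR adjusted p = 0.0231). The difference between the sexes itself was called in 12 of the 79, where drones were called the more positive in 0.188% of all genes. That count was 22 with DESeq2, 0 without colony 3, and 5 to 16 when 1 drone was left out, with the lowest without afternoon drone 2. The count over all genes moved with it, at 49 with DESeq2, 0 without colony 3 and 10 to 30 with 1 drone left out, against 21. For all 79 genes the difference between the sexes rests on the ratio limits of the choice, since this fit used the same bees.

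**Figure D1:**
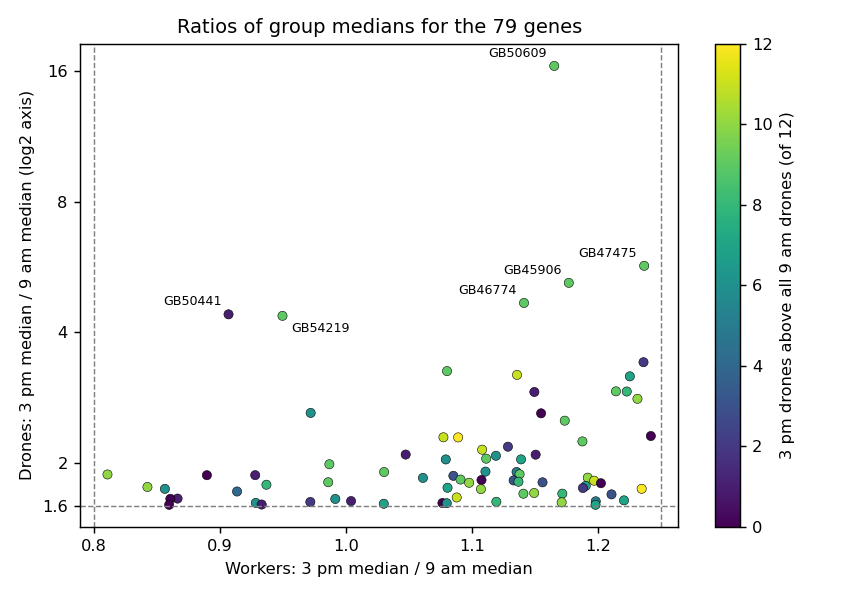
Ratio of the 3 pm to the 9 am median in drones (vertical, log2 axis) against the same ratio in workers (horizontal), with 1 point per gene for the 79 genes and colour for the number of 12 afternoon drones above all morning drones. GB50609 stands apart at a drone ratio of 16.4, and 50 genes lie between 1.6 and 2.

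The afternoon drones were not alike. For each gene an afternoon drone was counted as above the morning range when its CPM exceeded that of all 12 morning drones, and as at the morning level otherwise. Over the 79 genes the number of afternoon drones above the morning range had a median of 7 of 12. It was 12 of 12 in 2 genes and at least 11 in 7, where 0.0269% and 0.179% of all genes tested reached these numbers. It was at least 9 in 31 genes and at least 6 in 52, against 0.895% and 3.23% of all genes, and 0 in 8 genes, against 63.5%. Since the choice of genes rests on the same bees, these shares carry no test.

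Drones 1, 3 and 4 were the 3 afternoon drones that stayed nearest to the morning level. Drone 1 (colony 1) was above the morning range in 18 of the 79 genes, drone 3 in 18 and drone 4 in 9, the last a pair from colony 2. Drone 2, the other bee of colony 1, was above it in 42. The 8 afternoon drones of colony 3, numbered 5 to 12, were above it in 49, 48, 47, 54, 55, 48, 45 and 55 genes. Of all genes tested, the share above the morning range was 5.19%, 7.95% and 4.12% in drones 1, 3 and 4, and 5.43% to 10.9% in the drones of colony 3. As shares of the 79 genes the same drones stood at 22.8%, 22.8% and 11.4%, and at 57.0% to 69.6%.

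Measured against the morning median, the order was the same at its low end. The median ratio over the 79 genes was 1.31 in drone 1, 1.397 in drone 3 and 1.28 in drone 4. It was 1.74 in drone 2 and 1.78 to 2.56 in the colony 3 drones, with drone 8 highest. Drone 4 was among the 3 lowest of the 12 afternoon drones in 52 genes, drone 1 in 47 and drone 3 in 41, while drones 8 and 10 were there in 3 genes each. The 12 morning drones had median ratios between 0.912 and 1.23 to their own group median, so drones 1, 3 and 4 lay just above that range. The highest of the morning drones was drone 11 of colony 3, which also gave the highest morning value in 13 genes.

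**Figure D2:**
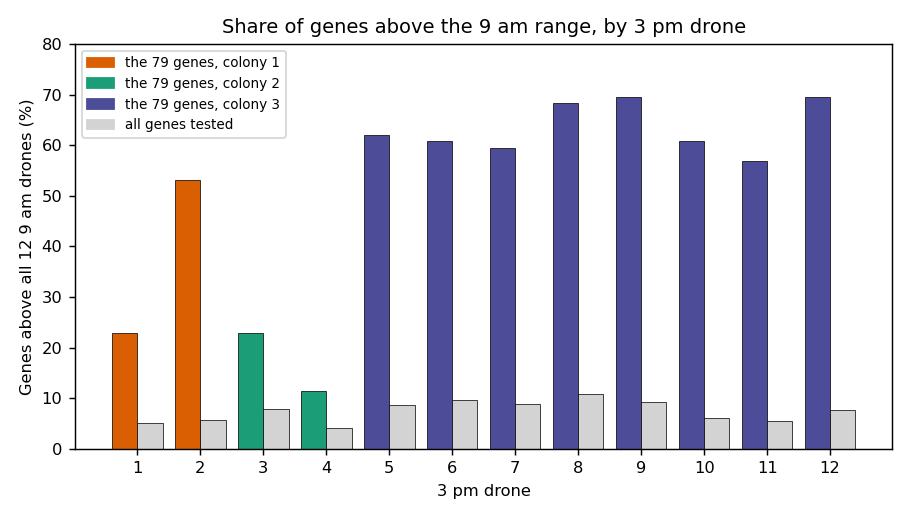
Percent of genes above all 12 morning drones in each of the 12 afternoon drones, for the 79 genes (coloured by colony) and for all genes tested (grey). Drones 1, 3 and 4 stand at 22.8%, 22.8% and 11.4%, drone 2 at 53.2%, and the 8 drones of colony 3 at 57.0% to 69.6%.

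The ratios of medians also differed between colonies, though colonies 1 and 2 had 2 afternoon drones each. The 2 of colony 1 were unlike, above the morning range in 18 and 42 genes, and its median lies between them. Within colony 3 the ratio of medians of afternoon to morning drones was at least 1.6 in 68 of the 79 genes, against 7.81% of all genes tested, and its median over the 79 was 2.14. Within colony 1 it was at least 1.6 in 32 genes, against 6.76%, with a median of 1.51. Within colony 2, which had 1 morning drone, it was at least 1.6 in 23 genes, against 8.28%, with a median of 1.30. The ratio was at or below 1 in 2 genes in colony 3, in 5 in colony 1 and in 21 in colony 2. Over the 8184 genes past the level limits the medians were 1.01 in colony 3, 0.950 in colony 1 and 0.969 in colony 2.

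Colony 3 gave 8 of the 12 afternoon drones, so its bees weighed most in the choice of genes. Without colony 3 the same limits chose 97 genes, of which 18 were among the 79, and 0 of the 79 passed as higher in afternoon drones, as did 1 of all genes (edgeR, the tool used for these bees). Before adjustment 33 of the 79 (41.8%) had a p below 0.05, against 6.42% of all genes. The log2 difference without colony 3 was positive in 71 of the 79, with a median of 0.51 against -0.02 over all genes. It was 2.48 for GB50609, 1.34 for GB47475, 1.33 for GB45906 and 0.92 for GB54219, each below its value over all drones. Without colony 1 or colony 2 the limits chose 120 or 93 genes, 46 or 39 of them among the 79.

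**Figure D3:**
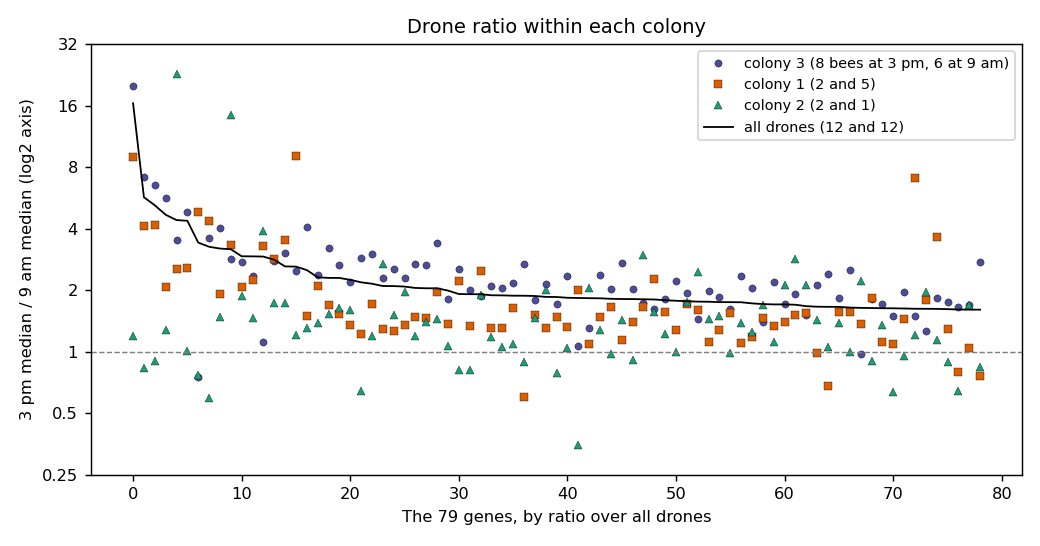
Ratio of the 3 pm to the 9 am drone median (log2 axis) within each colony for the 79 genes, ordered by the ratio over all drones (line). Colony 3 ratios lie mostly at or above the line (68 genes at 1.6 or more), and colony 2 ratios are at or below 1 in 21 genes.

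Sequencing pool, as the labels number it, divided the drones differently from colony. Each of pools 1 to 6 held 2 afternoon and 2 morning drones. Within a pool, the ratio of the mean of the afternoon pair to that of the morning pair was at least 1.6 in 59, 56, 64, 35, 26 and 56 of the 79 genes in pools 1 to 6. The median ratios were 2.00, 2.18, 2.41, 1.53, 1.18 and 2.05. The genes were chosen on the same contrast in the same bees, and no share over all genes was computed by pool. Nothing is therefore read from these counts. Both afternoon drones of pool 5 were the colony 2 bees, so that pool and that colony cannot be told apart, and drone 1 was in pool 4.

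The most frequent set of drones was shared by 12 genes. In these the same 9 afternoon drones, drone 2 and drones 5 to 12, exceeded every morning drone, and drones 1, 3 and 4 did not. This division defines the set. Of all genes tested, 0.188% had this set of drones. The 12 genes were GB50609, GB47475, GB45906, GB46774, GB54219, GB45907, GB40074, GB40746, GB44503, GB42501, GB40866 and GB44056, with drone ratios from 1.84 to 16.4. They include the 4 largest ratios and the 5 highest afternoon medians of the 79. GB40746, GB44503, GB42501 and GB44056 are named only because they complete the set, after their values were seen.

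GB50609 had the widest gap. Afternoon drones 1, 3 and 4 had 162, 144 and 127 CPM, drone 2 had 2119 CPM, drones 5 and 6 had 5936 and 5697 CPM, and drones 7 to 12 had 1653 to 2573 CPM, whereas morning drones had 48.4 to 165 CPM with a median of 114 CPM. Afternoon workers had 138 to 573 CPM (median 192) and morning workers 81.0 to 1032 CPM (median 165). No afternoon drone lay between 165 and 1653 CPM, and the 3 low bees were inside the morning range. Means were 2182 ± 1900 CPM in afternoon drones and 114 ± 35.2 CPM in morning drones (SD, n = 12 each). The fitted log2 difference was 4.05 ± 0.51 in drones (SE, edgeR adjusted p = 6.76e-07). The drone response exceeded the worker response by 4.17 ± 0.67 (edgeR adjusted p = 0.00151). Within colonies, the ratio of medians was 20.0 in colony 3, 9.01 in colony 1 and 1.19 in colony 2. The colony 1 afternoon median lies between drone 1 at 162 CPM and drone 2 at 2119 CPM.

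GB54219 repeated this division over a very even morning group. Afternoon drones had 321 to 3902 CPM with a median of 1587, and morning drones 314.6 to 405 CPM with a median of 363. Afternoon workers had 300 to 682 CPM (median 339) and morning workers 307 to 788 CPM (median 357). Drones 1, 3 and 4 had 321, 361 and 373 CPM, all within the morning range. The other 9 had at least 1350 CPM, above every worker too. The log2 difference was 2.03 ± 0.26 in drones (SE, edgeR adjusted p = 9.56e-07), and the ratios were 4.81 in colony 3, 2.58 in colony 1 and 1.01 in colony 2.

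GB47475 and GB46774 showed the same bees on either side at lower levels. GB47475 had 121 to 2198 CPM in afternoon drones (median 745) and 76.5 to 194 CPM in morning drones (median 131), against 122 to 377 CPM in afternoon workers (median 143) and 89.1 to 499 CPM in morning workers (median 116). GB46774 had 121 to 1179 CPM in afternoon drones (median 499) and 77.5 to 160 CPM in morning drones (median 107), with medians of 132 and 116 CPM in afternoon and morning workers. In GB47475 the colony 2 ratio was 0.833, so its afternoon pair lay below its 1 morning drone, while the ratio in colony 3 was 7.13. The log2 differences in drones were 2.37 ± 0.35 for GB47475 (SE, edgeR adjusted p = 7.89e-06) and 2.05 ± 0.26 for GB46774 (edgeR adjusted p = 6.76e-07).

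GB45906 and GB45907, whose identifiers are consecutive, also belonged to the set. GB45906 had 38.5 to 875 CPM in afternoon drones (median 210) and 26.9 to 69.9 CPM in morning drones (median 40.4), with worker medians of 42.1 CPM at 3 pm and 35.8 CPM at 9 am. GB45907 had 20.8 to 361 CPM in afternoon drones (median 76.2) and 8.51 to 37.4 CPM in morning drones (median 23.4), with worker medians of 21.9 and 20.3 CPM. Drones 5 and 6 were the highest pair in both genes. The rule for reads shared by overlapping or near-identical genes is not given in the sources used here, so values of possible neighbours are uncertain in that respect.

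GB40866 had the highest afternoon drone median of the 79 genes. Afternoon drones had 4613 to 15882 CPM (median 9193) and morning drones 3754 to 6116 CPM (median 4869), against 3999 to 8233 CPM in afternoon workers (median 5496) and 3021 to 8382 CPM in morning workers (median 4831). The ratio of drone medians was 1.89 and the log2 difference 0.88 ± 0.19 (SE, edgeR adjusted p = 0.00257). GB40074 had 220 to 1381 CPM in afternoon drones (median 788), 195 to 528 CPM in morning drones (median 269), and worker medians of 506 CPM at 3 pm and 417 CPM at 9 am. Its morning worker median thus lay above its morning drone median, at a drone to worker ratio of 0.645, the lowest of the 12 genes. The groups overlapped, since morning workers ran from 313 to 621 CPM.

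Across the 12 genes the side of each drone is given by the definition of the set, which also keeps drones 1, 3 and 4 within the morning maximum. The heights are a description. The median ratio to the morning median was 1.01, 1.31 and 1.06 in drones 1, 3 and 4. It was 7.90 in drone 5, 5.67 in drone 6, 4.90 in drone 12, and 2.56 to 3.93 in drones 2 and 7 to 11. Drone 5 was the highest afternoon drone in 8 genes, and drones 5 and 6 were the 2 highest in 8. No share over all genes was computed for these counts. Drones 5 and 6 were of colony 3 and of pools 2 and 6, and their libraries were of 9.03 and 9.73 M gene reads.

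Some workers of both hours were above the morning drones in these 12 genes. Afternoon workers 10 and 4 exceeded every morning drone in 10 and 9 of them, with median ratios to the morning drone median of 1.799 and 1.61. Morning workers 12, 6 and 8 did so in 8, 7 and 6, with median ratios of 1.49, 1.78 and 1.44. Each of the other 19 workers did so in at most 4. Of all genes tested, 11.7% were above every morning drone in each of afternoon workers 10 and 4. In morning workers 12, 6 and 8 these shares were 13.2%, 12.3% and 16.3%. Over all afternoon workers the share ran from 8.99% to 13.5%, and over all morning workers from 9.47% to 18.3%. Morning worker 6 (colony 2) was the highest of all 24 workers in 5 of the genes and reached 1032 CPM of GB50609, 9.03 times the morning drone median. The high workers thus came from both hours. Since the morning drones entered the choice of genes, these counts are a description.

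**Figure D4:**
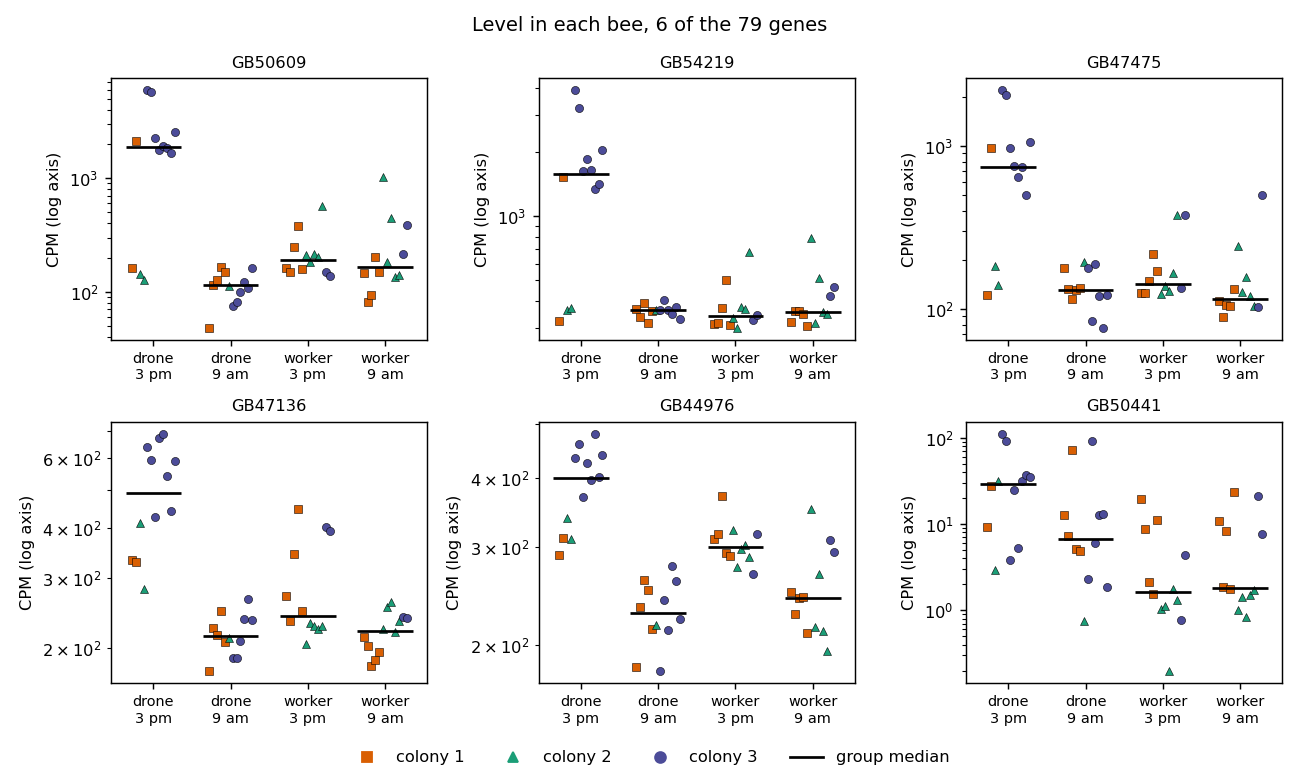
CPM (log axis) in each bee for 6 of the 79 genes, by group, with symbols for colony and a line at the group median. In GB50609 the 3 low afternoon drones (127 to 162 CPM) lie inside the morning range of 48.4 to 165 CPM and the other 9 lie at or above 1653 CPM.

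In 7 genes at least 11 of the 12 afternoon drones exceeded every morning drone, and 2 of these, GB47136 and GB44976, had no overlap at all. GB47136 had 281 to 692 CPM in afternoon drones (median 492) and 175 to 265 CPM in morning drones (median 214), so the groups did not overlap, against 205 to 448 CPM in afternoon workers (median 241) and 181 to 261 CPM in morning workers (median 221). GB44976 had 290 to 480 CPM in afternoon drones (median 399) and 180 to 277 CPM in morning drones (median 228), again without overlap, against worker medians of 300 CPM at 3 pm and 243 CPM at 9 am. The drone log2 differences were 1.11 ± 0.13 for GB47136 (SE, edgeR adjusted p = 6.23e-07) and 0.72 ± 0.10 for GB44976 (edgeR adjusted p = 3.02e-06). Workers were also higher at 3 pm in GB47136 by their means, at 288 against 221 CPM. Their log2 difference was 0.39 ± 0.13 (SE, edgeR adjusted p = 0.0901). In both genes all 3 colonies had a ratio above 1, at 2.66, 1.53 and 1.63 in colonies 3, 1 and 2 for GB47136 and at 1.86, 1.28 and 1.49 for GB44976. Drones 1, 3 and 4 had 332, 411 and 281 CPM of GB47136, above the morning range but below the afternoon median. In GB44976 the afternoon workers lay close to the morning drones' upper end, and 13 of the 24 workers exceeded all morning drones.

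In the other 5 genes 11 of the 12 afternoon drones exceeded the morning range. GB41700 had 33.1 to 158 CPM in afternoon drones (median 91.4) and 20.5 to 40.4 CPM in morning drones (median 28.6), with worker medians of 36.6 CPM at 3 pm and 32.2 CPM at 9 am. The afternoon drone inside the morning range was drone 3, at 33.1 CPM. The drone log2 difference was 1.53 ± 0.19 (SE, edgeR adjusted p = 6.76e-07). The other genes, named after their values were seen, were GB45040, GB50730, GB54372 and GB55526, with ratios of 2.30, 2.15, 1.82 and 1.67. GB55526 was the one of these in which colony 2 had the largest ratio, at 2.12, against 1.51 in colony 3 and 1.55 in colony 1.

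Both colony 2 drones were above the morning range in 6 of the 79 genes, against 1.29% of all genes tested, and neither was in 58, against 89.2%. Both colony 1 drones were above it in 14, against 1.28%. All 8 colony 3 drones were above it in 28, against 0.645%, and in 25 of these drone 2 was above it as well, against 0.537%. In 3 of the 28, GB47136, GB44976 and GB55526, both colony 2 drones also were, against 0.0985%. The 8 colony 3 drones alone were above it in 1 gene, against 0.0537% of all genes, which was GB47848 (named after its values were seen), at 15.8 to 33.7 CPM in all afternoon drones and 9.11 to 20.6 CPM in morning drones. In 29 genes none of the 4 drones of colonies 1 and 2 was above the morning range, against 82.4%. The genes were chosen for high afternoon levels, so nothing is read from these counts.

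**Figure D5:**
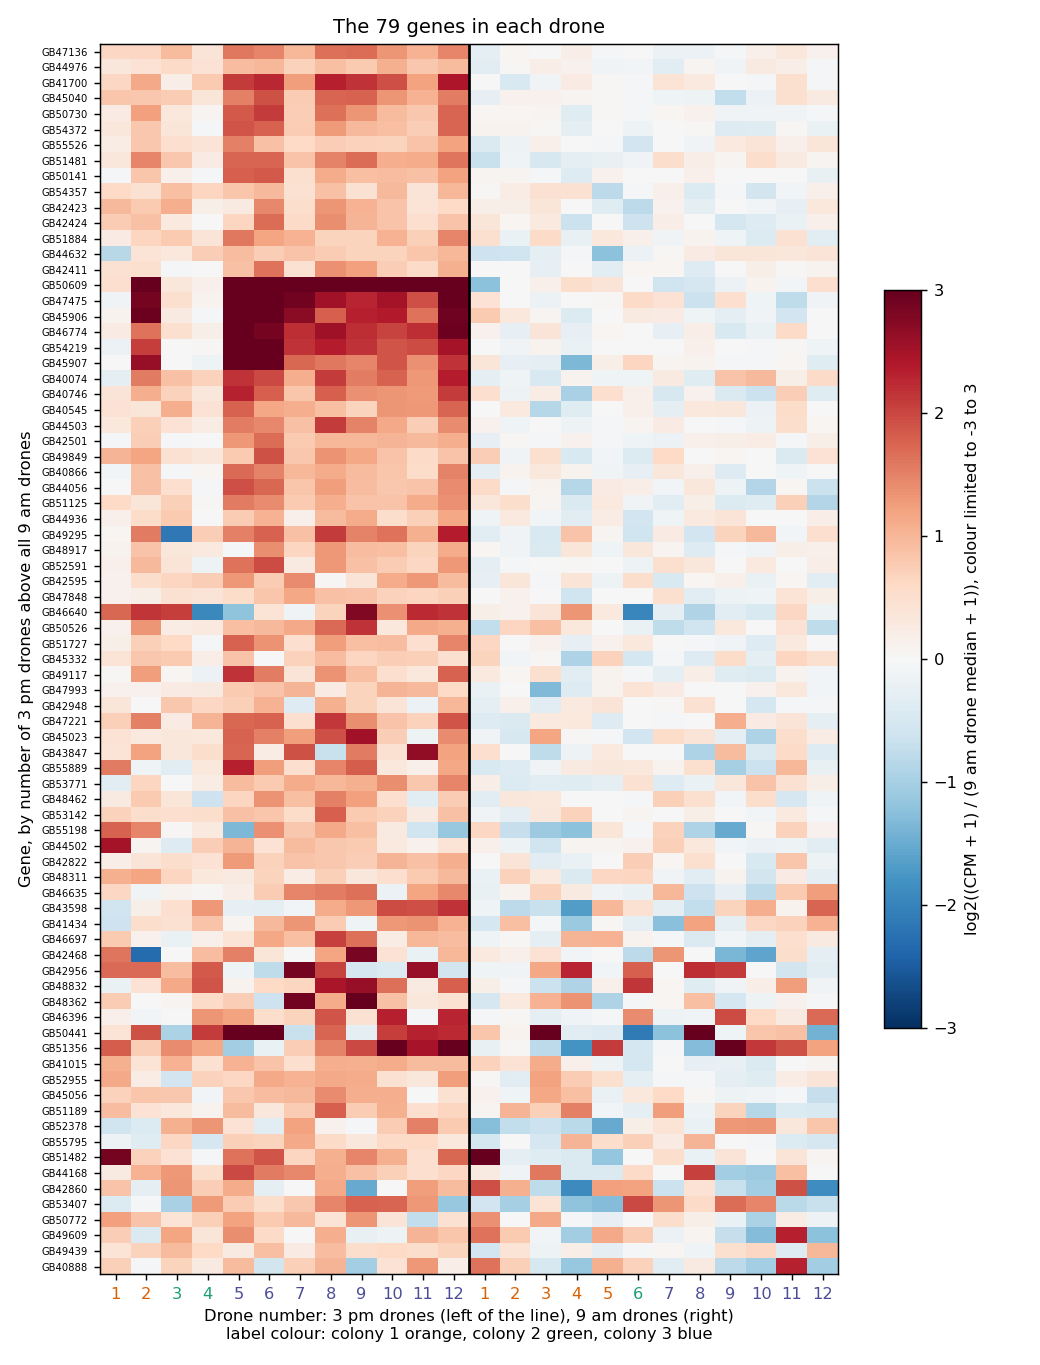
The 79 genes in each of 12 afternoon drones (left) and 12 morning drones (right), as log2 of CPM + 1 over the morning drone median + 1, ordered by the number of afternoon drones above all morning drones. The columns of afternoon drones 1, 3 and 4 are paler than those of drones 5 to 12, and in the 8 genes with no afternoon drone above the morning range single morning drones are as high as any.

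At the other end, 20 genes had at most 2 afternoon drones above the morning range, as did 87.9% of all genes. Of these 20, 2 passed as higher in afternoon drones, and the highest afternoon median among them was 31.5 CPM. The 8 genes with none above were GB51482, GB44168, GB42860, GB53407, GB50772, GB49609, GB49439 and GB40888, all listed to complete the count, with drone log2 differences of 0.01 to 0.72, and 0 of the 8 passed (edgeR). All 31 genes with at least 9 above passed. All 79 had a positive log2 difference in drones, and 27 did not pass the threshold. Of the 29 genes with a ratio of at least 2, 21 passed. The ratio, the number of drones above the morning range and the test all read the same contrast in the same bees. Their agreement is therefore a description.

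Single morning drones were high in some of these genes. GB51482 had 2.06 to 21.9 CPM in afternoon drones (median 5.60) and 0.405 to 68.2 CPM in morning drones (median 2.15), where morning drone 1 gave the 68.2 CPM and every other morning drone was at or below 3.53 CPM. GB40888 had 1.20 to 10.1 CPM in afternoon drones (median 5.59) and 1.05 to 21.1 CPM in morning drones (median 3.48). In these 2 genes the mean of afternoon drones was not above that of morning drones. The log2 differences were 0.53 ± 0.51 for GB51482 (SE, edgeR adjusted p = 0.715) and 0.01 ± 0.40 for GB40888 (edgeR adjusted p = 0.996), and GB40888 had negative values with DESeq2, size factors or no filter, without colony 2 or 3, and in 14 of the 24 fits that left out 1 drone. Without morning drone 1, GB51482 passed at a log2 difference of 1.77 ± 0.32 (edgeR adjusted p = 0.000403). GB44168 passed without morning drone 8, at 1.13 ± 0.31 (edgeR adjusted p = 0.0298).

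Large ratios also occurred where single bees spread widely. GB50441 had a ratio of 4.40, with 2.97 to 112 CPM in afternoon drones (median 29.4) and 0.758 to 91.7 CPM in morning drones (median 6.67), against 0.199 to 19.6 CPM in afternoon workers (median 1.65) and 0.828 to 23.3 CPM in morning workers (median 1.82). Its log2 difference in drones was 1.28 ± 0.61 (SE, edgeR adjusted p = 0.296), and 2.14 ± 0.63 without morning drone 8, the highest of its group (edgeR adjusted p = 0.0438). GB51356 had 4.21 to 122 CPM in afternoon drones (median 28.5) and 2.09 to 115 CPM in morning drones (median 9.75), and its log2 difference was 0.90 ± 0.57 (edgeR adjusted p = 0.495). The drones high in these 2 genes were not the same, since drone 5 was highest for GB50441 at 112 CPM and lowest for GB51356 at 4.21 CPM. GB42956 had 0.719 to 20.1 CPM in afternoon drones (median 6.47) and 0.983 to 13.1 CPM in morning drones (median 1.89), with ratios of 0.754 in colony 3, 4.82 in colony 1 and 0.772 in colony 2, and an edgeR adjusted p of 0.842. GB46640 was also variable, at 1.41 to 61.6 CPM in afternoon drones (median 25.9) and 1.35 to 22.0 CPM in morning drones (median 8.16), with 7 afternoon drones above the morning range and a log2 difference of 1.82 ± 0.40 (edgeR adjusted p = 0.00285).

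The 79 genes varied more from bee to bee than the genes past the level limits did. Since the same bees chose the genes and the sets were not matched for level, these values are a description. The SD of log2 (CPM + 1) among afternoon drones had a median of 0.612 over the 79 genes, against 0.252 over the 8184 genes past the level limits. In morning drones it was 0.462 against 0.306, in afternoon workers 0.384 against 0.247, and in morning workers 0.433 against 0.298. Among the 8 afternoon drones of colony 3 alone it was 0.484 against 0.251. The widest SD among the 24 workers was 1.41 for GB51356 and 1.31 for GB50441.

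The levels of the sexes differed more often in the afternoon than in the morning. The ratio of morning drone to morning worker medians had a median of 0.939 over the 79 genes and 0.997 over the genes past the level limits. It was within 1.25-fold in 34 of the 79 (43.0%), against 64.5% of the genes past the limits, above 1.25 in 18 (22.8%, against 20.4%) and below 0.8 in 27 (34.2%, against 15.1%). The morning ratio was at least 2 in 8 genes (10.1%, against 3.34%). The ratio of afternoon drone to afternoon worker medians had a median of 1.65, against 1.04 for the genes past the limits. It was within 1.25-fold in 15 genes (19.0%, against 60.0%), above 1.25 in 60 (75.9%, against 25.9%) and below 0.8 in 4 (5.06%, against 14.1%). The afternoon ratio was at least 2 in 30 genes (37.97%, against 4.15%). Since these medians entered the choice of genes, the shares are a description. GB47221, named after its values were seen, had a morning drone median below the worker medians. It had medians of 12.4 CPM in afternoon drones and 4.74 CPM in morning drones against 11.6 and 11.9 CPM in afternoon and morning workers, so that afternoon drones stood at the workers' level.

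Among workers, those of the afternoon were above all morning drones in 12 to 35 of the 79 genes and those of the morning in 5 to 24. As shares of the 79 genes these are 15.2% to 44.3% and 6.33% to 30.4%, against 8.99% to 13.5% and 9.47% to 18.3% of all genes tested in the same bees. The share of the 79 was below that of all genes in 3 morning workers and in 0 afternoon workers. The morning drones and the workers both entered the choice of genes, so these shares are a description. The highest counts were 35 in afternoon worker 4 (colony 1, the 1 library of pool 7) and 31 in afternoon worker 10 (colony 2). As a share of the 79 genes these 2 workers stood at 44.3% and 39.2%, against 11.7% of all genes tested in each. Both counts were above those of afternoon drones 1, 3 and 4. Morning workers 6, 8 and 12 each had 24.

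Colonies were also compared within a group. The rule used no colony, but it used the morning drones, and the mix of colonies differed between the drone groups, so the contrast in morning drones is not independent of the choice and is a description. In morning drones, colony 3 (6 bees) was set against colony 1 (5 bees) in a model with a mean for each group and colony. Of the 79 genes 2 passed (2.53%), against 1.83% of all genes, both as higher in colony 3, where 0.878% of all genes were called, and 12 (15.2%) had an unadjusted p below 0.05, against 14.3% of all genes. The median log2 difference was 0.0058 over the 79 and -0.0044 over all genes, and 51.9% of the 79 were positive, against 49.5%. These shares lie near those of all genes. In the 12 genes with the shared set of drones the log2 differences ran from -0.28 to 0.67, and the lowest edgeR adjusted p was 0.246.

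GB52378 and GB44632 were the genes called. GB52378 had 3.50 to 12.0 CPM in the 6 morning drones of colony 3 (median 7.04) and 0.809 to 2.31 CPM in the 5 of colony 1 (median 1.94), without overlap, at a log2 difference of 2.24 ± 0.40 (SE, edgeR adjusted p = 0.000944). GB44632 had 16.5 to 21.0 CPM in those of colony 3 (median 20.5) and 6.203 to 15.4 CPM in those of colony 1 (median 10.2), also without overlap, at 0.84 ± 0.20 (edgeR adjusted p = 0.0172). The afternoon to morning ratio of GB52378 was 0.975 in colony 3, 1.36 in colony 1 and 2.23 in colony 2, against 1.64 over all drones, and that of GB44632 was 1.39, 1.47 and 1.7, against 1.71. GB44632 was among the 28 genes with all 8 colony 3 afternoon drones above the morning range, and its afternoon medians were 28.5 CPM in colony 3, 15.0 CPM in colony 1 and 23.6 CPM in colony 2. In a fit of the bees compared alone GB44632 no longer passed (edgeR adjusted p = 0.213). GB52378, with 0.809 CPM as its lowest value in colony 1, was removed by the expression filter of that fit and was not tested there. Leaving out morning drone 1, 2, 5 or 10 also ended the call of GB44632 (edgeR adjusted p = 0.0570, 0.0541, 0.0752 and 0.0530), and GB52378 passed in all 11 such fits.

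In workers, whose colonies were spread alike over both hours, colony 2 was set against colony 1, with 10 bees each and both hours averaged. Of the 79 genes 2 passed (2.53%), against 0.582% of all genes, and 15 (19.0%) had an unadjusted p below 0.05, against 7.25% of all genes. The median log2 difference was 0.05 over the 79 genes and -0.01 over all genes, and 55.7% of the 79 were positive, against 46.3%. The 2 genes were the most variable of the 79 among workers, and both were lower in colony 2, where 0.43% of all genes were called lower. GB51356 had 2.66 to 5.84 CPM in workers of colony 2 (median 3.84) and 2.82 to 101 CPM in those of colony 1 (median 13.4), at a log2 difference of -2.85 ± 0.59 (SE, edgeR adjusted p = 0.00853). GB50441 had 0.199 to 1.75 CPM in those of colony 2 (median 1.21) and 1.55 to 23.3 CPM in those of colony 1 (median 8.61), at -2.94 ± 0.73 (edgeR adjusted p = 0.0464). With terms for pool GB51356 no longer passed (edgeR adjusted p = 0.0633), and with size factors GB50441 did not (0.0515). When 1 worker was left out GB50441 passed in 4 of 20 fits (edgeR adjusted p = 0.0334 to 0.135) and GB51356 in 20. In the 12 genes with the shared set of drones the log2 differences ran from -0.18 to 0.93, 10 of them positive, with a lowest edgeR adjusted p of 0.317.

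At the limits of the choice, values on either side were close. The drone ratio of the nearest members was 1.606 for GB40888, 1.606 for GB42948 and 1.608 for GB55795, and that of the nearest genes outside was 1.599 for GB43728, 1.597 for GB52781 and 1.596 for GB47456. At the upper worker limit, the members GB44168, GB47475 and GB42956 had worker ratios of 1.242, 1.237 and 1.236, and GB47565, GB50159 and GB53620 outside had 1.253, 1.255 and 1.266. At the lower worker limit, GB50141, GB42424 and GB48462 had 0.811, 0.842 and 0.856, and GB49109, GB52490 and GB47541 outside had 0.780, 0.773 and 0.731. GB52490 had a drone ratio of 6.87, which only GB50609 among the 79 exceeded. At the level limit, GB40888, GB51482 and GB48362 had 5.59, 5.60 and 5.64 CPM in afternoon drones, and GB53665, GB45002 and GB41474 outside had 4.72, 4.56 and 4.51 CPM.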

How the data were processed

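One file per bee held the raw read counts per gene that the authors deposited, with no normalization. Upstream, per the submitters' processing notes, came HTSeq 0.5.4, TopHat2 2.0.10, Trimmomatic 0.30, CASAVA 1.8.2, SAMtools and edgeR 3.4.2, with no roles stated. The counting mode is not given in the sources used here, and genes that overlap or have near-identical copies are uncertain. Each file listed 15314 identifiers, 1074 of them without a read in any library, and 5 summary entries, which were left out. Reads outside genes were 28.0% ± 1.73 of a file's entries, ambiguous reads 0.909% ± 0.0829 and reads with several alignments 2.67% ± 0.18 (SD, n = 48).

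CPM is the count over the summed gene counts of the library, times 1000000. Tests used edgeR 4.0.16 in R 4.3.3 (two-sided quasi-likelihood F test, TMM scaling, filterByExpr by group, Benjamini-Hochberg adjustment over 11167 genes, threshold 0.05) on all 48 libraries, with 4 groups and colony as a covariate, or with a mean per group and colony for the colony contrasts. The code was tested on simulated data. DESeq2 1.42.0, other scaling, no filter, pool terms and the replicate block, left-out colonies, left-out bees and other limits of the choice were alternatives. Gene reads of 6.69 to 27.1 M per library limit the precision of weakly expressed genes.

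Bees were grouped by sex and hour from the labels. Every library is from another animal, though nestmates have the queen and hive in common. The members and lists were chosen with earlier results of these data known. Genes named are the 10 with the largest drone ratio, the 6 with the highest afternoon drone median, those called in a colony contrast, those nearest to each limit, those with the most and fewest afternoon drones above the morning range, and the 2 most variable among workers. Others are said to be named after their values were seen. Lists by gene name (cell type markers among them) were not used, since 0 identifiers matched a name.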

Additional observations from a re-analysis of the deposited data

Results flagged for a closer look

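Among the genes that the naming rule gave, 9 differed between the sexes by a test of the difference between the drone response and the worker response. Both responses took part in choosing the genes, so these are descriptions. As drone response minus worker response on the log2 scale (± SE), the difference was 4.17 ± 0.67 for GB50609 (edgeR adjusted p = 0.00151), 2.10 ± 0.36 for GB54219 (0.00223), 2.06 ± 0.47 for GB47475 (0.0409), 2.05 ± 0.43 for GB45907 (0.0216) and 1.95 ± 0.35 for GB46774 (0.00295). These 5 genes share the division in which afternoon drones 1, 3 and 4 were inside the morning range. The others were 1.17 ± 0.27 for GB41700 (edgeR adjusted p = 0.0410), 1.16 ± 0.22 for GB42424 (0.00364), 1.14 ± 0.20 for GB50141 (0.00295) and 1.01 ± 0.23 for GB51125 (0.0424). When each of the 24 drones was left out in turn, GB41700 and GB51125 passed in 11 fits each, GB47475 in 14 and GB45907 in 23, and the other 5 in 24.

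In GB42424 and GB50141 the workers were slightly lower in the afternoon. GB42424 had medians of 73.8 CPM in afternoon drones and 41.8 CPM in morning drones against worker medians of 52.7 CPM (afternoon) and 62.6 CPM (morning). GB50141 had 90.4 CPM in afternoon drones and 47.9 CPM in morning drones against 45.9 CPM (afternoon) and 56.6 CPM (morning) in workers. In GB51125 the medians were 654 CPM in afternoon drones and 361 CPM in morning drones against 319 CPM (afternoon) and 324 CPM (morning) in workers. Most bees of colony 3 were drones and most of colonies 1 and 2 were workers, and its part in the differences was not tested.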

How the results depend on the processing

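The number of genes chosen was 29 at a drone ratio of at least 2, 184 at 1.4 and 120 without colony 1, against 79. Other settings gave 76 to 110, but the genes chosen changed. Of the 79, 61 stayed with TMM-scaled library sizes, 62 with size factors and 63 after thinning to equal depth. Without colony 2 or colony 3, 39 or 18 stayed. With a mean in place of the median 45 of 98 were among the 79. Leaving out 1 bee gave 68 to 107, at least 66 of them shared. The 52 genes called in drones became 0 without colony 3, where 1 of all genes was called, and were 50 to 56 otherwise (48 to 55 when 1 bee was left out), where 205 to 340 of all genes were. The 12 genes called for the difference between the sexes became 22 with DESeq2, 7 with the replicate block and 0 without colony 3 (17 at an unadjusted p below 0.05), and 5 to 16 when 1 bee was left out. They were 5 without afternoon drone 2, 6 without 5, 6 or 12, 7 without 8 or 9, 7 without morning drone 6 or 9, and 6 without 7, 8, 10 or 12. The 2 genes called between colonies in morning drones became 4 with DESeq2, 0 (8 at an unadjusted p below 0.05) with the bees compared alone, and 1 to 4 when 1 bee was left out (1 without morning drone 1 or 10, 4 without 3). The 2 called between colonies in workers became 1 with size factors, 1 with pool terms, 4 with the bees compared alone and 1 to 2 when 1 bee was left out. The causes were not tested. Numbers of afternoon drones above the morning range had a median of 7 under the other scalings too.

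The log2 difference of GB40888 in drones, 0.01, was -0.0064 with DESeq2, -0.0129 without a filter, -0.0048 with size factors, -0.0125 without colony 2 and -0.18 without colony 3. Without colony 3, GB48362 was at -0.18, GB51482 at -0.52 and GB55795 at -0.57. Bees with the same number in different groups are different animals, but afternoon and morning workers of the same number came from the same colony. Between any pair of groups 3 to 6 of 12 correlations of their deviations exceeded 0.1. From 1 to 4 of 12 bees correlated best with their own number, with the 4 between afternoon and morning workers. No expected counts were computed, so whether such bees share more than the number was not tested. Weakly expressed members are limited by depth.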
